A study of Drosophila melanogaster with 18 samples.

Results

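The effect of depleting PABP2 was set against that of depleting PCF11 in testes of Drosophila melanogaster, at the poly(A) sites of genes that have more than 1. The groups were chosen by their labels as PABP2_KD and PCF11_KD, 2 libraries each, so 4 of the 18 samples of the series and 2 of its 9 groups. In PABP2_KD the driver bamGal4 drove an RNAi knockdown of PABP2, in PCF11_KD the same driver drove one of PCF11 through a VDRC line, and the 2 control libraries carried bamGal4 alone. The bam promoter acts in the last spermatogonial divisions, and the labels name the spermatocyte as the knockdown's target; whole testes were used, so each library also held cells outside the driver's reach. All the flies came from crosses kept at 25 °C for 3 days, with the progeny moved to 29 °C, and each library pooled RNA of 150 pairs of testes. The labels give neither the age at dissection nor whether the 2 libraries of a group came from separate crosses. The spread between libraries behind the p-values may thus be technical. In the tests of each gene it was estimated over all 18 libraries, not over the 4 compared alone.

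PABP2 is the nuclear poly(A)-binding protein, which coats the growing tail and holds poly(A) polymerase on it. PCF11 is a subunit of cleavage factor II, binds the C-terminal domain of RNA polymerase II, and is needed for 3′-end cleavage and for termination. In human and mouse cells, loss of the PABP2 homolog PABPN1 is known for a move toward proximal poly(A) sites, and loss of PCF11 for a move toward distal ones. Fly testes are known for short 3′ UTRs in male germ cells.

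Counts of 3′-end reads covered 1082 sites in 529 gene entries. A library held 805414 and 587297 counts in PABP2_KD testes, 536930 and 473323 in PCF11_KD testes and 371119 and 342763 in control testes. For each gene the 2 sites with most counts were taken, and the proximal share is the percent of their counts at the site nearer the start of the gene. The sites lay a median of 415 nt apart. In 219 of the 525 genes tested (41.7%) the distal site lay beyond the annotated gene end. Of 27 cleavage and polyadenylation factors looked for, 0 were on the authors' site list, so the level of PABP2 and of PCF11 RNA was not measured in any library. Among 51 markers of testis cells, 10 were measured, and those that define stages best (bam, vas, aly, can, tj and Mhc among them) were not on the list. Genes such as chinmo, Rbp9, twe, m-cup and r-cup had counts in each of these libraries, but so did every gene tested. The tissue label could thus not be checked with these counts.

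The 2 PABP2_KD libraries stood further apart than the libraries of the other groups. The median gene had a proximal share of 65.1% and 71.4% in PABP2_KD testes, against 61.8% and 63.8% in PCF11_KD testes and 76.1% and 78.6% in control testes. Replicate 1 of PABP2_KD was thus closer to the PCF11_KD libraries, and replicate 2 closer to the controls. The group means were 68.3% ± 4.47 and 62.8% ± 1.36 (SD, n = 2 each), a difference of 5.48 points. The groups did not overlap, and the two-sided exact permutation test gave p = 0.33, the smallest value that 2 against 2 libraries allow. Without PABP2_KD replicate 1 the difference was 8.63 points, and without replicate 2 it was 2.32 points. Gene by gene, the median difference of mean shares was smaller, at 2.56 points.

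**Figure D1:**
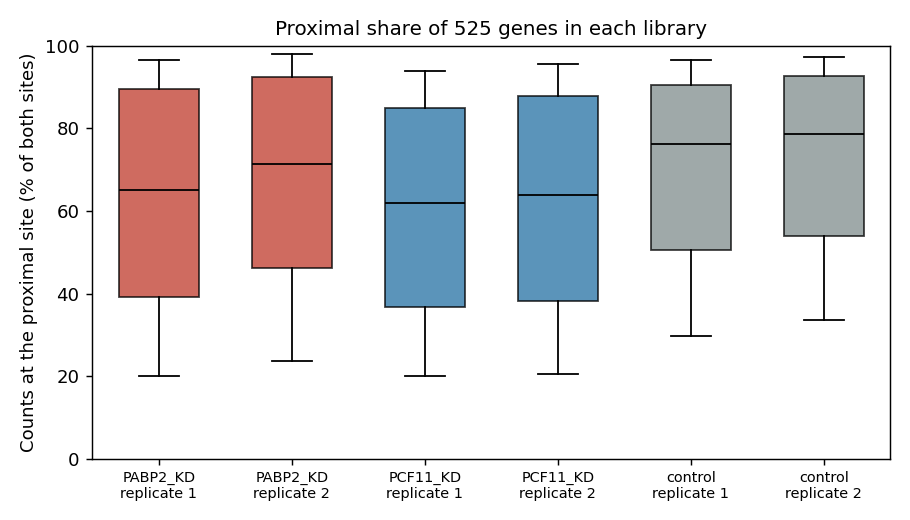
The proximal share, in percent of the counts at both sites, over 525 genes in each library of PABP2_KD, PCF11_KD and control testes; boxes span the quartiles, lines mark medians and whiskers the 10th and 90th percentiles. The medians of the PABP2_KD libraries (65.1% and 71.4%) lie above those of the PCF11_KD libraries (61.8% and 63.8%) and below those of the controls (76.1% and 78.6%).

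Summed over all genes, so that abundant transcripts weigh more, the groups overlapped: 68.4% and 74.0% of counts fell on proximal sites in PABP2_KD testes, against 68.6% and 69.2% in PCF11_KD testes and 81.1% and 82.7% in control testes. The difference of 2.34 points did not exceed the spread of the PABP2_KD libraries (exact permutation p = 1), and without PABP2_KD replicate 2 it was -0.491. Per gene, the 2 PABP2_KD libraries differed by a median of 6.23 points, those of PCF11_KD by 2.64 and those of the controls by 3.25. In PABP2_KD, 66 genes differed by 20 points or more between replicates, against 13 in PCF11_KD and 21 in the controls.

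Site usage differed between the 2 knockdowns in 200 of the 525 genes tested, mostly with more proximal use under PABP2 depletion. In edgeR's quasi-likelihood test, fitted over all 18 libraries with p-values adjusted by Benjamini and Hochberg at 0.05, 143 genes (27.2%) moved toward the proximal site in PABP2_KD relative to PCF11_KD and 57 (10.9%) moved toward the distal site. A positive log2 odds means more proximal use in PABP2_KD. Moves named below are differences from PCF11_KD, not from control. Trc8, Trpm and acj6, for example, were called toward proximal while both knockdowns lay below the controls. Where control shares are not given, the call does not tell which knockdown departed from control. Libraries of the 2 groups did not overlap in 219 genes with the higher share in PABP2_KD (41.7%) and in 107 with the lower share (20.4%), the 200 called genes among them. The mean share differed by 20 points or more in 70 of the 143 genes and in 22 of the 57. The spread was shared by all groups, and the PABP2_KD libraries differed more from each other per gene than those of PCF11_KD or the controls. It may thus understate the spread of PABP2_KD. The choice of samples that set the spread mattered: with the 4 libraries alone the same test called 43 and 10 genes. Without PCF11_KD replicates 1 and 2 in turn, 36 and 28 genes moved toward distal and 101 and 111 toward proximal. In each of the fits without 1 of the 4 libraries, 86 of the 143 and 22 of the 57 calls held.

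The called genes of the 2 directions began from like control shares and parted under the knockdowns. Genes that moved toward proximal had a median share of 89.4% in PABP2_KD, 58.1% in PCF11_KD and 81.01% in control testes. Those that moved toward distal had a median of 46.3% in PABP2_KD, 70.9% in PCF11_KD and 81.3% in control testes. These medians describe genes chosen by the same contrast. Sites lay a median of 522 nt apart in the toward-proximal genes, 424 nt in the toward-distal genes and 418 nt in all genes tested. Among 154 genes with sites at most 250 nt apart, 16.9% moved toward proximal and 10.4% toward distal; the shares were 29.6% and 13.6% in 199 genes with sites over 250 and up to 600 nt apart, and 33.7% and 8.14% in 172 genes with sites further apart. With the distal site beyond the annotated gene end (219 genes), 21.9% moved toward proximal and 10.5% toward distal. With the distal site in the 3′ UTR (292 genes), 31.2% and 10.6% did. Counting ignored strand, and in 154 tested genes another annotated gene covered a site. Among the 371 others, 28.0% moved toward proximal and 12.4% toward distal.

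**Figure D2:**
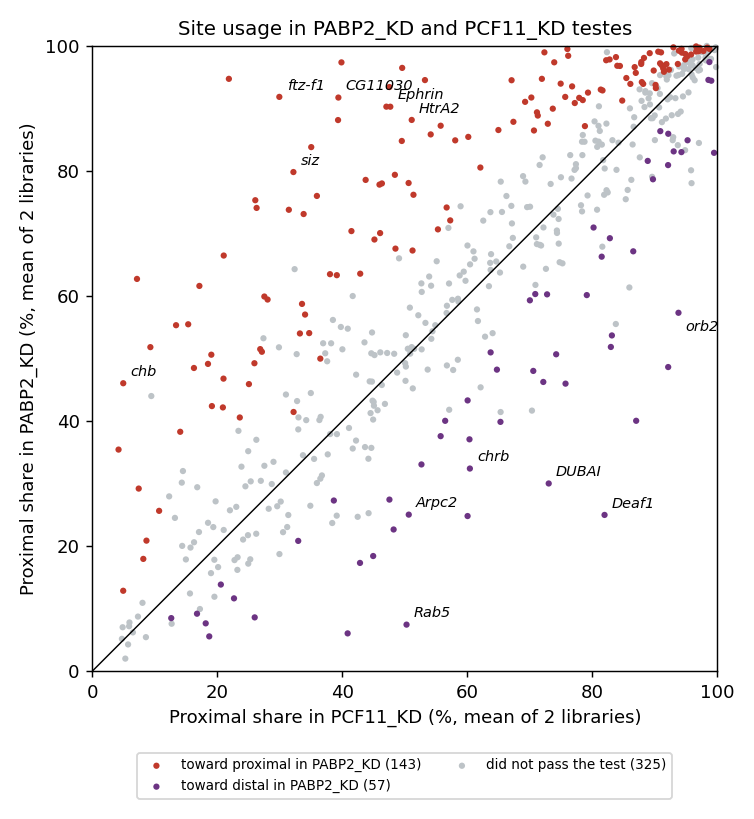
The mean proximal share of each of 525 genes in PABP2_KD testes (vertical, percent) against PCF11_KD testes (horizontal, percent), with the line of equal shares; colours mark the 143 genes that moved toward proximal and the 57 that moved toward distal in PABP2_KD. Labelled genes are described in the text.

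The 12 genes named for the greatest move toward proximal in PABP2_KD include nuclear and signalling regulators. For each gene, the chromosome and the positions of the proximal and distal site (BDGP6) are given with its proximal shares. ftz-f1, a nuclear receptor, had 88.5% and 95.2% in PABP2_KD testes, against 18.2% and 41.7% in PCF11_KD testes and 42.9% and 78.6% in control testes (sites at 18752478 and 18752337 on 3L). The ftz-f1 log2 odds was 4.40 ± 1.40 (SE), with adjusted p = 0.0243. It rested on 52 and 21 counts in PABP2_KD and 11 and 12 in PCF11_KD testes, and the 2 controls were far apart. Src42A, a tyrosine kinase of the Src family, had 62.96% and 62.5% in PABP2_KD testes, against 7.14% and 7.14% in PCF11_KD testes and 9.09% and 27.3% in control testes (6011990 and 6012194 on 2R; log2 odds 4.36 ± 0.97 (SE), adjusted p = 0.0032), from 8 to 28 counts in these 4 libraries. Mkp3, a phosphatase of MAP kinases, had 58.05% and 92.6% in PABP2_KD testes, against 31.7% and 20.4% in PCF11_KD testes and 52.2% and 50% in control testes (19068531 and 19068404 on 3L). For Mkp3 the log2 odds was 3.20 ± 0.88 (SE) and adjusted p = 0.012. Of the PABP2_KD libraries, replicate 2 lay far above the controls in Mkp3 and replicate 1 a few points above. Ndf, a nucleosome-destabilising factor, had 86.8% and 89.5% in PABP2_KD testes, against 40.3% and 38.4% in PCF11_KD testes and 34.9% and 37.3% in control testes (10008372 and 10008744 on 2L). The Ndf log2 odds was 3.52 ± 0.65 (SE), with adjusted p = 0.00102. In Ndf the PCF11_KD libraries lay a few points above the controls, and both PABP2_KD libraries lay far above.

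Of the others, CG11030 showed the opposite pattern to Ndf, with PABP2_KD near the controls and PCF11_KD far below: 88.8% and 94.7% in PABP2_KD testes, against 29.3% and 49.4% in PCF11_KD testes and 95.8% and 96.3% in control testes (5759898 and 5760052 on 2L). For CG11030 the log2 odds was 4.12 ± 0.59 (SE) and adjusted p = 1.56e-04. The same held for Dph1, an enzyme of diphthamide synthesis, with 89.6% and 97.3% in PABP2_KD testes, against 43.02% and 52.1% in PCF11_KD testes and 84.9% and 89.8% in control testes (11694039 and 11693799 on 3L). The Dph1 log2 odds was 4.02 ± 0.55 (SE), with adjusted p = 1.07e-04. Lztr1, whose human homolog is an adaptor of a ubiquitin ligase that acts on Ras proteins, had 83.8% and 83.9% in PABP2_KD testes, against 32.6% and 37.5% in PCF11_KD testes and 67.7% and 84.4% in control testes (924080 and 922880 on X). For Lztr1 the log2 odds was 3.26 ± 0.59 (SE) and adjusted p = 8.83e-04. Its distal site lies beyond the annotated gene end, and CG43867 covers a site on the same strand. At the mod(mdg4) entry PAA, of a chromatin protein made from trans-spliced exons, the shares were 98.5% and 94.4% in PABP2_KD testes, against 56.9% and 42.3% in PCF11_KD testes and 96.6% and 90.5% in control testes (21370918 and 21370424 on 3R). The mod(mdg4)-PAA log2 odds was 4.84 ± 0.91 (SE), with adjusted p = 0.00117. Other units of this locus cover its sites, and its proximal site lies in an intron.

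In siz, a guanine nucleotide exchange factor of Arf proteins, both knockdowns lay above the controls, with 65.1% and 94.5% in PABP2_KD testes, against 32.9% and 31.5% in PCF11_KD testes and 17.1% and 11.5% in control testes (21074768 and 21075438 on 3L). For siz the log2 odds was 3.26 ± 0.70 (SE) and adjusted p = 0.00262. Atg18b, of a family of autophagy proteins that bind phosphoinositides, was ordered the same way, with 60.2% and 72.7% in PABP2_KD testes, against 20.9% and 21.2% in PCF11_KD testes and 12.5% and 10.8% in control testes (21212815 and 21212389 on 2L). The Atg18b log2 odds was 2.86 ± 0.53 (SE), with adjusted p = 0.00105. CG14712 had 59.4% and 88.8% in PABP2_KD testes, against 25.1% and 27.5% in PCF11_KD testes and 65.6% and 69.98% in control testes (11633016 and 11633180 on 3R; log2 odds 3.21 ± 0.81 (SE), adjusted p = 0.00734), and its PABP2_KD libraries lay on either side of the controls. CG17724 had 94.7% and 100% in PABP2_KD testes, against 29.7% and 50% in PCF11_KD testes and 29.6% and 88.2% in control testes (13176925 and 13176191 on 2R). For CG17724 the log2 odds was 5.18 ± 1.52 (SE) and adjusted p = 0.017. It had only 19 and 11 counts in PABP2_KD testes, where 0 of 11 counts at the distal site allows a share of up to 27.3%, and Kdm4B and seq cover its sites on the same strand. With the 4 libraries alone 7 of the 12 genes were called, and ftz-f1, CG17724, Mkp3, CG14712 and siz were not (adjusted p from 0.0505 to 0.166). In the fit to all groups, 9 of the 12 calls held without each of the 4 libraries in turn. Those of ftz-f1 (without either PCF11_KD library, adjusted p up to 0.137), CG17724 (without either PABP2_KD library or PCF11_KD replicate 1, up to 0.0927) and Mkp3 (without PCF11_KD replicate 2, 0.0767) did not.

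**Figure D3:**
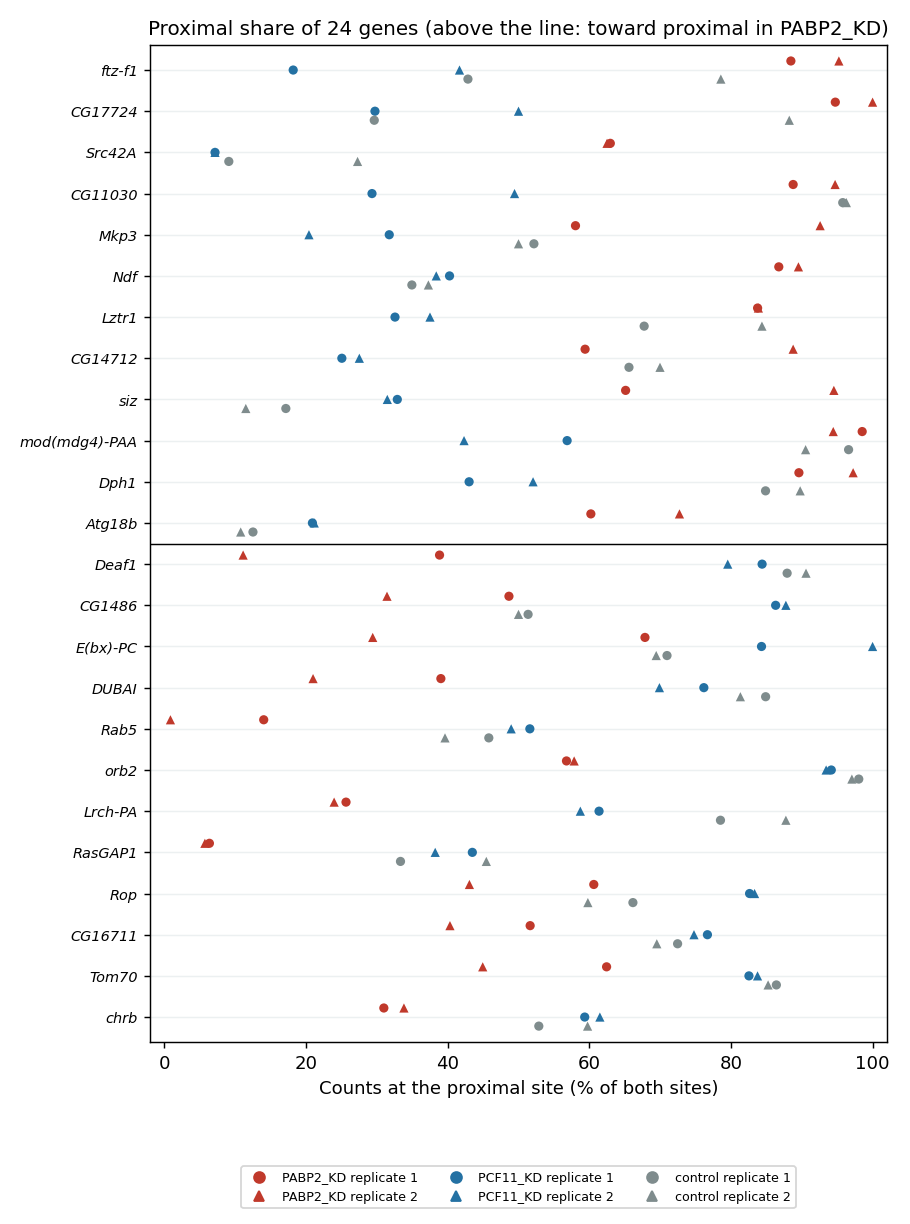
The proximal share (percent of the counts at both sites) of the 24 named genes in each library, with PABP2_KD above PCF11_KD and control in each gene's row; circles are replicate 1 and triangles replicate 2. The 12 genes above the line have higher shares in PABP2_KD than in PCF11_KD, and the 12 below it have lower shares.

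The 12 genes named for the greatest move toward distal in PABP2_KD include regulators of transcription, translation and membrane traffic. Deaf1, a transcription factor, had 38.8% and 11.1% in PABP2_KD testes, against 84.4% and 79.5% in PCF11_KD testes and 87.9% and 90.6% in control testes (sites at 19829455 and 19829956 on 3L). The Deaf1 log2 odds was -3.61 ± 0.78 (SE), with adjusted p = 0.00281. orb2, of the CPEB family of translational regulators and needed in spermatogenesis, had 56.8% and 57.9% in PABP2_KD testes, against 94.2% and 93.4% in PCF11_KD testes and 98.05% and 97.1% in control testes (8941346 and 8940320 on 3L). For orb2 the log2 odds was -3.50 ± 0.41 (SE) and adjusted p = 3.06e-05. Its PABP2_KD libraries agreed closely, while PCF11_KD stayed a few points below the controls. Rab5, the GTPase of early endosomes, had 14.02% and 0.847% in PABP2_KD testes, against 51.6% and 48.96% in PCF11_KD testes and 45.8% and 39.6% in control testes (2360382 and 2359922 on 2L). The Rab5 log2 odds was -3.53 ± 0.99 (SE), with adjusted p = 0.0135. Almost all Rab5 counts were at the distal site in PABP2_KD. DUBAI, a deubiquitinase, had 39.04% and 20.99% in PABP2_KD testes, against 76.2% and 69.9% in PCF11_KD testes and 84.9% and 81.3% in control testes (12431934 and 12431432 on 2R). For DUBAI the log2 odds was -2.71 ± 0.49 (SE) and adjusted p = 9.21e-04. Tom70, a receptor for import into mitochondria, had 62.4% and 44.9% in PABP2_KD testes, against 82.5% and 83.8% in PCF11_KD testes and 86.4% and 85.2% in control testes (12036105 and 12035994 on 2L; log2 odds -2.07 ± 0.30 (SE), adjusted p = 1.56e-04), and CG18788 covers its sites on the opposite strand.

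Among signalling genes, RasGAP1, which switches off Ras, had 6.35% and 5.71% in PABP2_KD testes, against 43.5% and 38.2% in PCF11_KD testes and 33.3% and 45.5% in control testes (9839913 and 9839097 on 3L; log2 odds -3.35 ± 0.66 (SE), adjusted p = 0.00295), from 34 to 63 counts in the 4 knockdown libraries. chrb, an inhibitor of TOR signalling, had 30.98% and 33.8% in PABP2_KD testes, against 59.3% and 61.5% in PCF11_KD testes and 52.9% and 59.8% in control testes (11495523 and 11498388 on 3L). The chrb log2 odds was -1.67 ± 0.26 (SE), with adjusted p = 2.35e-04. In both genes the PCF11_KD libraries overlapped the controls. CG16711 had 51.6% and 40.3% in PABP2_KD testes, against 76.7% and 74.8% in PCF11_KD testes and 72.5% and 69.5% in control testes (9709623 and 9710329 on 3L). For CG16711 the log2 odds was -1.87 ± 0.31 (SE) and adjusted p = 5.13e-04. CG1486 had 48.6% and 31.4% in PABP2_KD testes, against 86.3% and 87.8% in PCF11_KD testes and 51.4% and 50% in control testes (21327784 and 21328153 on X), so that PCF11_KD lay far above the controls. The CG1486 log2 odds was -3.19 ± 0.74 (SE), with adjusted p = 0.00454.

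Rop, a Sec1 family protein of vesicle fusion, was ordered like CG1486, with 60.6% and 43.1% in PABP2_KD testes, against 82.6% and 83.3% in PCF11_KD testes and 66.2% and 59.8% in control testes (4136866 and 4136350 on 3L). For Rop the log2 odds was -2.12 ± 0.76 (SE) and adjusted p = 0.0421. Lrch-PA, a leucine-rich repeat protein with a calponin homology domain, had 25.6% and 23.96% in PABP2_KD testes, against 61.4% and 58.7% in PCF11_KD testes and 78.5% and 87.8% in control testes (17367947 and 17367512 on 2L). The Lrch-PA log2 odds was -2.19 ± 0.67 (SE), with adjusted p = 0.0213. The entry PC of E(bx), the largest subunit of the NURF chromatin remodeller, had 67.9% and 29.4% in PABP2_KD testes, against 84.3% and 100% in PCF11_KD testes and 70.97% and 69.4% in control testes (238997 and 238320 on 3L; log2 odds -3.02 ± 1.06 (SE), adjusted p = 0.0379), from 17 to 51 counts in the 4 knockdown libraries; 0 of 23 counts at the distal site in PCF11_KD replicate 2 allows a share of up to 13.0%. With the 4 libraries alone 5 of the 12 genes were called, and Deaf1, DUBAI, CG16711, Tom70, Rop, Rab5 and E(bx)-PC were not (adjusted p from 0.0505 to 0.204). In the fit to all groups, 8 of the 12 calls held without each of the 4 libraries. Those of Rab5 (without PABP2_KD replicate 2 or PCF11_KD replicate 1, adjusted p up to 0.0575), Lrch-PA (without either PCF11_KD library, 0.0927), Rop (without PABP2_KD replicate 2 or either PCF11_KD library, 0.146) and E(bx)-PC (without replicate 2 of either knockdown, 0.186) were lost.

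Of 17 tested genes of the cell cycle and meiosis list, 4 (23.5%) moved toward proximal in PABP2_KD, 3 (17.6%) toward distal and 10 did not pass, beside 27.2% and 10.9% of all genes. The median difference was 1.84 points, against 2.56 over all genes. fzr, which activates the anaphase-promoting complex, had 93.2% and 95.9% in PABP2_KD testes, against 65.1% and 69.1% in PCF11_KD testes and 94.2% and 93.8% in control testes. For fzr the log2 odds was 3.09 ± 0.26 (SE) and adjusted p = 3.60e-06. CycB, the B-type mitotic cyclin, had 94.5% and 99.1% in PABP2_KD testes, against 84.2% and 84.6% in PCF11_KD testes and 98.5% and 98.9% in control testes (log2 odds 2.87 ± 0.61 (SE), adjusted p = 0.00258), and Cdk5, a cyclin-dependent kinase, had 97.7% and 98.4% in PABP2_KD testes, against 88.1% and 88.5% in PCF11_KD testes and 96.6% and 95.7% in control testes. The Cdk5 log2 odds was 2.72 ± 0.33 (SE), with adjusted p = 4.42e-05. In these 3 genes PABP2_KD lay close to the controls, and PCF11_KD below them. mei-S332, the shugoshin that protects centromeric cohesion in meiosis, moved the other way, with 13.1% and 14.6% in PABP2_KD testes, against 20.1% and 21.1% in PCF11_KD testes and 59.3% and 61.9% in control testes. For mei-S332 the log2 odds was -0.69 ± 0.16 (SE) and adjusted p = 0.00513. pim, the fly securin, had 20.9% and 20.8% in PABP2_KD against 31.5% and 34.4% in PCF11_KD, and CycA, the A-type cyclin, had 78.1% and 85.1% in PABP2_KD against 88.3% and 89.4% in PCF11_KD, both toward distal. vih, the ubiquitin-conjugating enzyme that serves the anaphase-promoting complex, had 38.4% and 44.5% in PABP2_KD against 31.8% and 32.6% in PCF11_KD, toward proximal. The calls of vih, pim and CycA were lost without at least 1 of the 4 libraries (PCF11_KD replicate 2 in each; adjusted p up to 0.0804, 0.0844 and 0.12).

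Transcription factors were called toward proximal in 6 of 12 cases (50%) and toward distal in 2 (16.7%), beside 27.2% and 10.9% of all genes. Their median difference was 6.79 points, against 2.56 over all genes. lola-PD, an isoform entry of a BTB zinc finger gene, had 99.01% and 100% in PABP2_KD testes, against 79.7% and 72.4% in PCF11_KD testes and 92.9% and 94.7% in control testes (log2 odds 5.66 ± 0.75 (SE), adjusted p = 8.69e-05); 0 of 274 counts at the distal site in PABP2_KD replicate 2 allows a share of up to 1.09%. chinmo, a BTB factor of early germ and cyst cells, had 77.8% and 77.8% in PABP2_KD testes, against 44.4% and 47.5% in PCF11_KD testes and 81.6% and 80.4% in control testes. The chinmo log2 odds was 2.04 ± 0.19 (SE), with adjusted p = 4.57e-06. acj6, a POU-domain factor, had 56.8% and 63.1% in PABP2_KD testes, against 25.6% and 29.5% in PCF11_KD testes and 73.3% and 81.5% in control testes. For acj6 the log2 odds was 1.97 ± 0.29 (SE) and adjusted p = 1.68e-04. The chinmo libraries agreed within each group, and PABP2_KD lay a few points below the controls. The others toward proximal were the nuclear receptors Hr3 (89.5% and 100% in PABP2_KD against 29.4% and 14.3% in PCF11_KD, from 9 to 19 counts) and Hr39 (13.8% and 11.9% in PABP2_KD against 7.05% and 2.82% in PCF11_KD) and the repressor ken (64.1% and 71.04% in PABP2_KD against 52.9% and 44.1% in PCF11_KD). usp, the fly RXR homolog, had 22.4% and 22.9% in PABP2_KD against 50% and 46.4% in PCF11_KD and joined Deaf1 in moving toward distal. Hr39 lost its call without PABP2_KD replicate 1 or PCF11_KD replicate 2 (adjusted p up to 0.203), and ken without PCF11_KD replicate 2 (0.0501).

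Among 23 genes of chromatin and transcription, 6 (26.1%) moved toward proximal and 2 (8.70%) toward distal, near the 27.2% and 10.9% of all genes, and 15 did not pass. The median difference was -1.90 points, against 2.56 over all genes. lid, a histone demethylase whose current symbol is Kdm5, had 78.5% and 80.3% in PABP2_KD testes, against 44.03% and 52.8% in PCF11_KD testes and 43% and 44.9% in control testes. The lid log2 odds was 2.02 ± 0.40 (SE), with adjusted p = 0.00167. Spt20, of the SAGA complex, had 90% and 99.1% in PABP2_KD testes, against 53.3% and 53.1% in PCF11_KD testes and 62.1% and 62.9% in control testes (log2 odds 4.07 ± 0.83 (SE), adjusted p = 0.00243), and in both genes the PABP2_KD libraries lay far above both other groups. Scm, of the Polycomb group, had 71.3% and 84.7% in PABP2_KD testes, against 45.3% and 47.3% in PCF11_KD testes and 80.1% and 80.5% in control testes (log2 odds 2.09 ± 0.36 (SE), adjusted p = 6.45e-04); SpdS covers a site on the opposite strand. Kdm4A, a histone demethylase, had 41.7% and 50.1% in PABP2_KD against 24.6% and 25.5% in PCF11_KD, Taf1, of TFIID, had 82.95% and 95.8% in PABP2_KD against 65.4% and 76.9% in PCF11_KD, and Chd1, a remodeller, had 32.3% and 65.9% in PABP2_KD against 16.2% and 20.8% in PCF11_KD. pho, which binds Polycomb response elements, had 12.9% and 4.23% in PABP2_KD against 26.9% and 25.1% in PCF11_KD and, with E(bx)-PC, moved toward distal. The calls of Taf1, Chd1 and pho were lost without PABP2_KD replicate 2 or PCF11_KD replicate 1, those of Chd1 and pho also without PCF11_KD replicate 2 (adjusted p up to 0.159, 0.151 and 0.121).

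Of 12 tested genes for RNA-binding, translation and mRNA decay, 4 (33.3%) moved toward proximal and 3 (25%) toward distal, beside 27.2% and 10.9% of all genes (median difference -1.47 points, against 2.56 over all genes). Imp, of the IGF-II mRNA-binding protein family, had 96.7% and 96.97% in PABP2_KD testes, against 83.01% and 85.01% in PCF11_KD testes and 90.8% and 92.5% in control testes. For Imp the log2 odds was 2.53 ± 0.24 (SE) and adjusted p = 5.30e-06. heph, the polypyrimidine tract-binding protein, had 95.6% and 87.03% in PABP2_KD testes, against 77.6% and 79.3% in PCF11_KD testes and 57.3% and 51.9% in control testes (log2 odds 1.73 ± 0.41 (SE), adjusted p = 0.00468), so that both knockdowns lay above the controls. orb, the germline CPEB protein, was almost all proximal everywhere, with 99.3% and 99.7% in PABP2_KD testes, against 98.8% and 98.7% in PCF11_KD testes and 99.9% and 99.9% in control testes. The orb log2 odds was 1.49 ± 0.36 (SE), with adjusted p = 0.00598. Rbp9, of the ELAV family, had 31.2% and 45.4% in PABP2_KD against 21.1% and 7.07% in PCF11_KD. With orb2, Hrb98DE, an hnRNP (24.5% and 30.1% in PABP2_KD against 35.6% and 41.7% in PCF11_KD), and nonC, the kinase Smg1 of nonsense-mediated decay (94.2% and 94.7% in PABP2_KD against 98.1% and 100% in PCF11_KD), moved toward distal. Rbp9, Hrb98DE and nonC each lost the call without PCF11_KD replicate 2, Rbp9 and nonC also without PABP2_KD replicate 2, Hrb98DE and nonC without PABP2_KD replicate 1, and Hrb98DE without PCF11_KD replicate 1 (adjusted p up to 0.0973, 0.243 and 0.168).

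Among 10 mitochondrial genes, 3 (30%) moved toward proximal and 3 (30%) toward distal, beside 27.2% and 10.9% of all genes (median difference -1.30 points, against 2.56). HtrA2, a protease of the intermembrane space, had 84.7% and 91.6% in PABP2_KD testes, against 52.2% and 50% in PCF11_KD testes and 95.5% and 94.9% in control testes. For HtrA2 the log2 odds was 2.86 ± 0.26 (SE) and adjusted p = 4.57e-06. Tom40, the pore of the import complex, had 93.9% and 94.1% in PABP2_KD testes, against 74.6% and 75.3% in PCF11_KD testes and 78.3% and 77.5% in control testes (log2 odds 2.38 ± 0.22 (SE), adjusted p = 4.57e-06), opposite in direction to Tom70, the receptor of that complex. HtrA2 was set apart by its low share in PCF11_KD, and Tom40 by its high share in PABP2_KD. mfrn, an iron carrier, had 93.98% and 93.6% in PABP2_KD against 90.6% and 89.7% in PCF11_KD. Toward distal were Marf, the fly mitofusin (58.4% and 80.04% in PABP2_KD against 81.96% and 83.7% in PCF11_KD), and MCU, the calcium uniporter (43.7% and 36.4% in PABP2_KD against 55.9% and 57.1% in PCF11_KD). These last 3 calls were lost without either PCF11_KD library, and without PABP2_KD replicate 1 for mfrn and Marf or replicate 2 for MCU (adjusted p up to 0.143, 0.236 and 0.0993).

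Of 14 genes for centrioles, motors and the cytoskeleton, 4 (28.6%) moved toward proximal and 1 (7.14%) toward distal, near the 27.2% and 10.9% of all genes (median difference 2.99 points, against 2.56). chb, the microtubule-binding CLASP protein, had 27.7% and 64.4% in PABP2_KD testes, against 4.67% and 5.22% in PCF11_KD testes and 24.7% and 30.8% in control testes (log2 odds 3.98 ± 0.66 (SE), adjusted p = 4.35e-04), with a wide gap between the PABP2_KD libraries. The entry cnn-PI of centrosomin had 99.8% and 100% in PABP2_KD testes, against 97.5% and 95.8% in PCF11_KD testes and 98.95% and 98.5% in control testes (log2 odds 5.18 ± 0.61 (SE), adjusted p = 4.42e-05), and 0 of 1144 distal counts in PABP2_KD replicate 2 allows a share of up to 0.262%. Arpc2, of the Arp2/3 complex that nucleates actin filaments, had 26.1% and 23.97% in PABP2_KD testes, against 49.8% and 51.5% in PCF11_KD testes and 58.5% and 66.9% in control testes. The Arpc2 log2 odds was -1.62 ± 0.28 (SE), with adjusted p = 7.27e-04. Grip71, of the gamma-tubulin ring complex, had 20.4% and 15.5% in PABP2_KD against 7.47% and 8.84% in PCF11_KD, and Patronin, which caps microtubule minus ends, had 93.2% and 94.6% in PABP2_KD against 86.4% and 89.9% in PCF11_KD. Both of these calls were lost without PCF11_KD replicate 1, and without PABP2_KD replicate 1 or PCF11_KD replicate 2 for Grip71 and PABP2_KD replicate 2 for Patronin (adjusted p up to 0.118 and 0.201).

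In signalling, 4 of 25 genes (16%) moved toward proximal and 6 (24%) toward distal, beside 27.2% and 10.9% of all genes, with a median difference of -0.686 points, against 2.56 over all genes. Ephrin, a ligand of Eph receptors, had 90.4% and 90.1% in PABP2_KD testes, against 47.8% and 47.6% in PCF11_KD testes and 34.2% and 46.1% in control testes. For Ephrin the log2 odds was 3.34 ± 0.32 (SE) and adjusted p = 5.30e-06. flfl, a regulatory subunit of a protein phosphatase, had 95.4% and 85.2% in PABP2_KD testes, against 45.8% and 48.3% in PCF11_KD testes and 46.6% and 44.3% in control testes. The flfl log2 odds was 3.43 ± 0.71 (SE), with adjusted p = 0.00237. In Ephrin and flfl the PCF11_KD libraries lay at most a few points above the higher control, and the PABP2_KD libraries far above it. Trpm, a cation channel, had 68% and 78.2% in PABP2_KD testes, against 31.1% and 36.5% in PCF11_KD testes and 97.1% and 97.9% in control testes (log2 odds 2.46 ± 0.31 (SE), adjusted p = 5.19e-05), with both knockdowns below the controls and PCF11_KD lower. Beside RasGAP1 and chrb, those that moved toward distal were Dl, the Notch ligand Delta (16.7% and 20.1% in PABP2_KD against 38.3% and 51.6% in PCF11_KD), the Ras regulator Nf1 (32.96% and 33.1% in PABP2_KD against 51.5% and 53.8% in PCF11_KD), dsh of the Wnt pathway (72.1% and 85.2% in PABP2_KD against 89.9% and 89.6% in PCF11_KD) and the kinase Akt1 (82.8% and 89.1% in PABP2_KD against 91.5% and 92.8% in PCF11_KD). All of these last 4 lost the call without PCF11_KD replicate 2, and Nf1, dsh and Akt1 also without PCF11_KD replicate 1 or PABP2_KD replicate 1, Nf1 besides without PABP2_KD replicate 2 (adjusted p up to 0.0817, 0.152, 0.227 and 0.322).

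Of 20 genes of the ubiquitin system, 7 (35%) moved toward proximal and 4 (20%) toward distal, beside 27.2% and 10.9% of all genes (median difference 2.53 points, against 2.56). Trc8, a ubiquitin ligase of the endoplasmic reticulum, had 36.9% and 47.9% in PABP2_KD testes, against 17.95% and 20.3% in PCF11_KD testes and 75.3% and 79.1% in control testes. For Trc8 the log2 odds was 1.63 ± 0.24 (SE) and adjusted p = 1.68e-04. slmb, an F-box protein, had 96.6% and 97.7% in PABP2_KD testes, against 92.9% and 94.5% in PCF11_KD testes and 90.6% and 92.4% in control testes. The slmb log2 odds was 1.19 ± 0.25 (SE), with adjusted p = 0.00258. The entry PB of the ligase Cbl had 87.8% and 89.9% in PABP2_KD against 72.9% and 69.6% in PCF11_KD, and Usp10, a deubiquitinase, had 96.4% and 97.5% in PABP2_KD against 89.4% and 92.8% in PCF11_KD. DUBAI was the one distal call of the list that held without each library. Of the calls not named so far, Cul3 (94.8% and 91.7% in PABP2_KD against 90.8% and 89.5% in PCF11_KD) and Nedd4 (97.1% and 98.6% in PABP2_KD against 93.97% and 95.8% in PCF11_KD) were toward proximal and neur (43.6% and 36.2% in PABP2_KD against 67.2% and 63.4% in PCF11_KD), rdx (87.5% and 74.4% in PABP2_KD against 91.1% and 93.2% in PCF11_KD) and Duba (61.5% and 57.1% in PABP2_KD against 71.9% and 68.1% in PCF11_KD) toward distal. Each of these 5 was lost without PCF11_KD replicate 1, Cul3 and rdx also without PCF11_KD replicate 2, Cul3 without PABP2_KD replicate 1 and Nedd4 and rdx without PABP2_KD replicate 2 (adjusted p up to 0.271, 0.155, 0.0809, 0.158 and 0.0813).

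In membrane trafficking, 2 of 13 genes (15.4%) moved each way, beside 27.2% toward proximal and 10.9% toward distal among all genes (median difference 0.450 points, against 2.56). They were Rab40 (45.4% and 77.9% in PABP2_KD against 13.9% and 20.4% in PCF11_KD) and the SNARE protein Vti1a (70.03% and 70.7% in PABP2_KD against 35.8% and 47.1% in PCF11_KD) toward proximal, and Rab5 and the clathrin heavy chain Chc (70.1% and 71.8% in PABP2_KD against 81.5% and 78.9% in PCF11_KD) toward distal. Rab40 and Vti1a lost the call without PCF11_KD replicate 1 (adjusted p = 0.0504 and 0.0561), and Chc without each of the 4 libraries (up to 0.2). Of 4 genes of the endoplasmic reticulum and Golgi, 1 (25%, beside 27.2% of all genes), app, a palmitoyltransferase, moved toward proximal, with 77.2% and 92.5% in PABP2_KD testes, against 58.5% and 57.6% in PCF11_KD testes and 84.4% and 85.96% in control testes. For app the log2 odds was 2.13 ± 0.47 (SE) and adjusted p = 0.00315. All lists beside the direction counts of all genes are shown in the plot of gene groups.

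**Figure D4:**
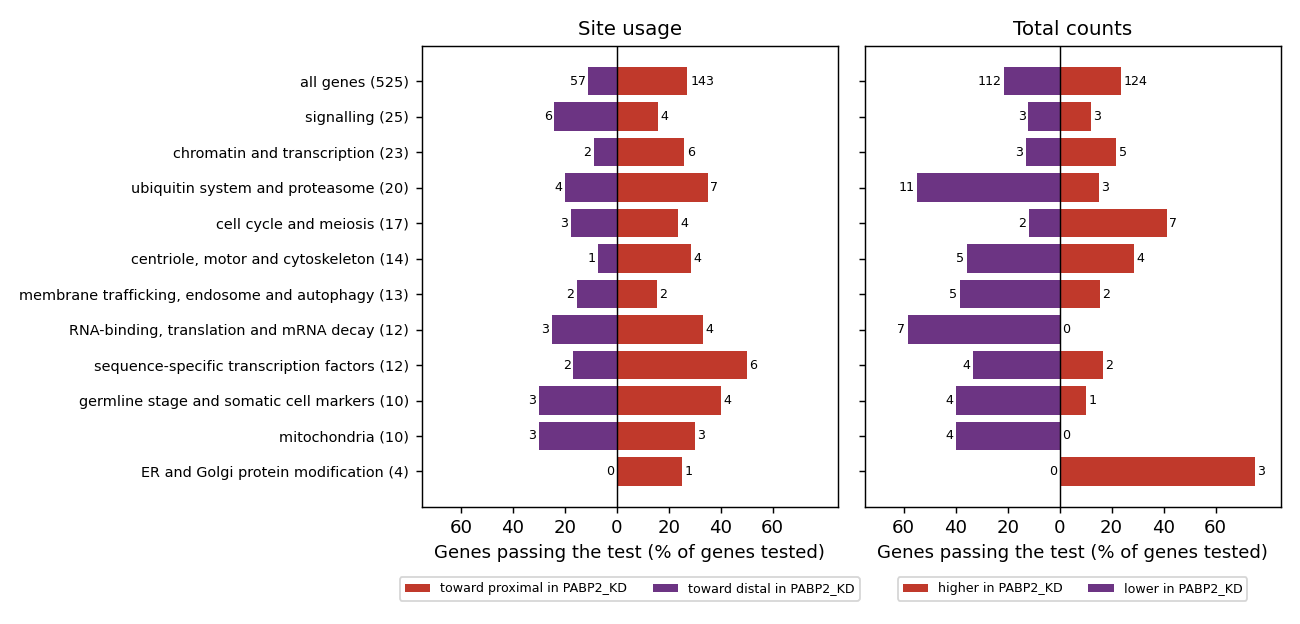
The share of tested genes (percent, with the number of genes at each bar) in each list that passed the test for site usage (left panel) and for total counts (right panel), toward proximal or higher in PABP2_KD to the right of 0 and toward distal or lower to the left. Lists are ordered by the number of genes tested, given in parentheses, below the values for all 525 genes.

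Some genes with lower shares than the controls in both knockdowns did not pass the test between them. The 7 named here are examples and not a ranking, and some of them passed without 1 library. isopeptidase-T-3, whose current symbol is Kpc2, had 27.3% and 38.4% in PABP2_KD testes, against 28.6% and 26.5% in PCF11_KD testes and 95.8% and 95.8% in control testes; between the knockdowns the log2 odds was 0.35 ± 0.24 (SE, edgeR adjusted p = 0.29). Mitofilin, which shapes the inner mitochondrial membrane, had 17.6% and 15.7% in PABP2_KD testes, against 20.7% and 19.5% in PCF11_KD testes and 82.2% and 82.2% in control testes. The Mitofilin log2 odds was -0.34 ± 0.15 (SE), with adjusted p = 0.101. bor, an ATPase of mitochondria, had 66.1% and 64.98% in PABP2_KD testes, against 63.8% and 65.5% in PCF11_KD testes and 95.2% and 95.2% in control testes. For bor the log2 odds was 0.06 ± 0.14 (SE) and adjusted p = 0.797. EMC1, of the endoplasmic reticulum membrane complex, had 17.6% and 23.6% in PABP2_KD testes, against 15.6% and 16.96% in PCF11_KD testes and 72.9% and 76.6% in control testes. The EMC1 log2 odds was 0.40 ± 0.22 (SE), with adjusted p = 0.162. The small standard error of bor limits the difference more tightly than that of Cks30A, which binds cyclin-dependent kinases, with 17.5% and 36.8% in PABP2_KD testes, against 21.1% and 18.4% in PCF11_KD testes and 86.3% and 87.5% in control testes. For Cks30A the log2 odds was 0.51 ± 0.41 (SE) and adjusted p = 0.36. gwl, the mitotic kinase Greatwall, had 7.03% and 8.52% in PABP2_KD testes, against 9.22% and 2.65% in PCF11_KD testes and 50% and 35.5% in control testes (log2 odds 0.37 ± 0.52 (SE), adjusted p = 0.615), and the SNARE protein Syx7 had 24.2% and 20.99% in PABP2_KD testes, against 21.4% and 20.6% in PCF11_KD testes and 43.4% and 42.5% in control testes. The Syx7 log2 odds was 0.13 ± 0.15 (SE), with adjusted p = 0.546. Without PABP2_KD replicate 1, 4 of these 7 genes passed, with log2 odds of 1.25 in Cks30A (adjusted p = 0.0109), 0.71 in isopeptidase-T-3 (0.0186), 0.67 in EMC1 (0.0208) and -0.44 in Mitofilin (0.0402). bor, gwl and Syx7 did not pass without any 1 of the 4 libraries. Both knockdowns were set against the same 2 control libraries, so their distances from control are not independent of each other.

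The authors' deposited tables give each knockdown against control, with a score that is positive for lengthening. In the authors' deposited table for PABP2_KD, 321 of 461 genes passed, 202 with a positive and 119 with a negative score. In the authors' deposited table for PCF11_KD, 365 of 473 passed, 273 with a positive and 92 with a negative score. For siz the authors' deposited scores were -2.46 in PABP2_KD and -1.16 in PCF11_KD, for DUBAI 1.47 and 0.186, and for Dph1 -0.0973 and 0.877.

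Total counts per gene, summed over its sites and scaled to a library size by TMM, also differed between the knockdowns. In edgeR, 124 of 525 genes (23.6%) were higher in PABP2_KD than in PCF11_KD and 112 (21.3%) lower, at an adjusted p below 0.05. The scaling centres the genes on the list, and the median log2 change was 0.01. Decreases reached further: 55 genes were below -1 on the log2 scale, 49 of them called, and 27 were above 1, 26 of them called. With the 4 libraries alone, 13 genes were called higher and 32 lower, and without PCF11_KD replicates 1 and 2 in turn 76 and 69 were called higher and 75 and 77 lower. Most of the higher calls and many of the lower calls were lost without at least 1 of the 4 libraries. In bulk testes, fewer cells of a type and less RNA per cell cannot be told apart. Summed over the measured markers, those of spermatids had 8544 and 8263 CPM in PABP2_KD testes, against 9983 and 11369 CPM in PCF11_KD testes and 9552 and 10520 CPM in control testes (3 of 13 markers measured). The 3 did not move together. nes was higher, with 2177 and 2885 CPM in PABP2_KD testes, against 1731 and 2038 CPM in PCF11_KD testes and 1812 and 1768 CPM in control testes (log2 change 0.42 ± 0.15 (SE), adjusted p = 0.0328). m-cup was lower, with 1847 and 2559.6 CPM in PABP2_KD testes, against 2823 and 3038 CPM in PCF11_KD testes and 4245 and 4935 CPM in control testes (log2 change -0.41 ± 0.14 (SE), adjusted p = 0.0318), and so was r-cup, with 4519.6 and 2818 CPM in PABP2_KD testes, against 5429 and 6293 CPM in PCF11_KD testes and 3495 and 3817 CPM in control testes (log2 change -0.67 ± 0.17 (SE), adjusted p = 0.00617). Early germline markers, here chinmo, Rbp9 and Imp, had 5197 and 4695 CPM in PABP2_KD testes, against 5809 and 6284 CPM in PCF11_KD testes and 6362 and 6288 CPM in control testes (3 of 8). Only Imp was called, as lower (log2 change -0.51, edgeR adjusted p = 0.0127). Rbp9 had a change of the other sign that did not pass (0.39, adjusted p = 0.173). The sum of simj and twe, the 2 of 15 genes listed for spermatocytes that were measured, overlapped between the knockdowns. It was 2836 and 2178 CPM in PABP2_KD testes, against 2329 and 2588 CPM in PCF11_KD testes and 1277 and 1460 CPM in control testes. Neither gene passed, and their signs differed (log2 change -0.29 in simj, edgeR adjusted p = 0.267, and 0.18 in twe, 0.299). Since simj is also in the chromatin list, the sum is no clear measure of spermatocytes. The 2 of 8 somatic cyst and hub markers had 595 and 618 CPM in PABP2_KD testes, against 559 and 567 CPM in PCF11_KD testes and 879 and 910.0 CPM in control testes. Of these, zfh1 was lower, with 69.1 and 112 CPM in PABP2_KD testes, against 143 and 137 CPM in PCF11_KD testes and 456 and 482 CPM in control testes (log2 change -0.65 ± 0.25 (SE), adjusted p = 0.0458), while ken did not pass, with 526 and 506 CPM in PABP2_KD testes, against 416 and 431 CPM in PCF11_KD testes and 423 and 428 CPM in control testes (log2 change 0.29 ± 0.13 (SE), adjusted p = 0.091). Over the 10 measured markers, 1 total (10%) was higher and 4 (40%) lower in PABP2_KD, beside 23.6% and 21.3% of all genes (median log2 change -0.15), and each of these 5 calls was lost without at least 1 of the 4 libraries. The part of such shifts in the totals was not tested.

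The greatest fall of a total in PABP2_KD relative to PCF11_KD was that of orb2, with 357 and 238 CPM in PABP2_KD testes, against 7091 and 6529 CPM in PCF11_KD testes and 5024 and 3759 CPM in control testes (log2 change -4.50 ± 0.36 (SE), adjusted p = 6.28e-07); CG43783 covers its sites on the same strand. CG42797, whose current symbol is Hecw, a ubiquitin ligase of the HECT class, had 160.0 and 187 CPM in PABP2_KD testes, against 1304 and 1413 CPM in PCF11_KD testes and 997 and 1298 CPM in control testes. For CG42797 the log2 change was -2.97 ± 0.17 (SE) and adjusted p = 2.87e-08. HDAC4, a class IIa histone deacetylase, had 25.3 and 35.8 CPM in PABP2_KD testes, against 183 and 177 CPM in PCF11_KD testes and 280.0 and 235 CPM in control testes. The HDAC4 log2 change was -2.58 ± 0.33 (SE), with adjusted p = 4.73e-05. Rab5 had 246 and 201 CPM in PABP2_KD testes, against 1398 and 1064 CPM in PCF11_KD testes and 2103 and 1765 CPM in control testes. For Rab5 the log2 change was -2.45 ± 0.26 (SE) and adjusted p = 1.14e-05. In these 4 genes the PABP2_KD libraries were near each other and far below both other groups.

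The PABP2_KD libraries were further apart in the remaining 4. Nsf2, an ATPase of membrane fusion, had 75.96 and 18.7 CPM in PABP2_KD testes, against 414 and 358 CPM in PCF11_KD testes and 412 and 412 CPM in control testes. The Nsf2 log2 change was -2.94 ± 0.48 (SE), with adjusted p = 3.88e-04. Ptpmeg2, a tyrosine phosphatase, had 352 and 86.9 CPM in PABP2_KD testes, against 1748 and 1559 CPM in PCF11_KD testes and 801 and 519 CPM in control testes (log2 change -2.88 ± 0.61 (SE), adjusted p = 0.00196), and Gclc, which makes the first step of glutathione synthesis, had 142 and 15.3 CPM in PABP2_KD testes, against 637 and 543 CPM in PCF11_KD testes and 277 and 275 CPM in control testes. For Gclc the log2 change was -2.82 ± 0.70 (SE) and adjusted p = 0.00535. Replicate 2 of PABP2_KD was the lower in each, and PCF11_KD lay above the controls in Ptpmeg2 and Gclc. CG43954, whose sites Lasp also covers, had 139 and 56.2 CPM in PABP2_KD testes, against 917 and 888 CPM in PCF11_KD testes and 1353 and 873 CPM in control testes. The CG43954 log2 change was -3.16 ± 0.48 (SE), with adjusted p = 2.17e-04. All 8 calls held without each of the 4 libraries in turn, and with the 4 libraries alone all but that of Gclc (adjusted p = 0.0742).

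Among the 8 genes with the greatest rise of the total in PABP2_KD relative to PCF11_KD, Vrp1, a partner of the actin regulator WASp, had 376 and 509 CPM in PABP2_KD testes, against 117 and 41.95 CPM in PCF11_KD testes and 118 and 144 CPM in control testes. For Vrp1 the log2 change was 2.44 ± 0.34 (SE) and adjusted p = 1.01e-04. Usp10 had 2706 and 4227 CPM in PABP2_KD testes, against 1039.9 and 1128 CPM in PCF11_KD testes and 3327 and 3622 CPM in control testes (log2 change 1.68 ± 0.19 (SE), adjusted p = 1.47e-05), so that it was set apart by its low level in PCF11_KD. xmas, of the complex that links transcription to mRNA export, had 517 and 792 CPM in PABP2_KD testes, against 173 and 258 CPM in PCF11_KD testes and 84.01 and 107 CPM in control testes (log2 change 1.60 ± 0.24 (SE), adjusted p = 1.74e-04), and Klp64D, a kinesin-II motor subunit, had 163 and 138 CPM in PABP2_KD testes, against 74.5 and 48.6 CPM in PCF11_KD testes and 39.2 and 30.5 CPM in control testes. The Klp64D log2 change was 1.28 ± 0.24 (SE), with adjusted p = 8.42e-04. Both knockdowns lay above the controls in these last genes. rogdi had 1375 and 1563 CPM in PABP2_KD testes, against 585 and 543 CPM in PCF11_KD testes and 717 and 705 CPM in control testes (log2 change 1.38 ± 0.14 (SE), adjusted p = 6.01e-06), emei had 2753 and 1899 CPM in PABP2_KD testes, against 1012 and 877 CPM in PCF11_KD testes and 574 and 406 CPM in control testes (log2 change 1.30 ± 0.18 (SE), adjusted p = 1.18e-04), and CG3309 had 123 and 204 CPM in PABP2_KD testes, against 39.1 and 33.1 CPM in PCF11_KD testes and 56.01 and 54.97 CPM in control testes. For CG3309 the log2 change was 2.15 ± 0.28 (SE) and adjusted p = 6.79e-05. Levels of rogdi and CG3309 in PCF11_KD lay below the controls. The exon unit pre-mod(mdg4)-U had 57.5 and 90.3 CPM in PABP2_KD testes, against 31.7 and 28.7 CPM in PCF11_KD testes and 28.0 and 33.6 CPM in control testes (log2 change 1.26 ± 0.38 (SE), adjusted p = 0.0156); other units of its locus cover its sites, and its call was lost without PABP2_KD replicate 2 or either PCF11_KD library (adjusted p up to 0.0963). The other 7 calls held, and with the 4 libraries alone that of Klp64D was lost as well (0.0639).

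**Figure D5:**
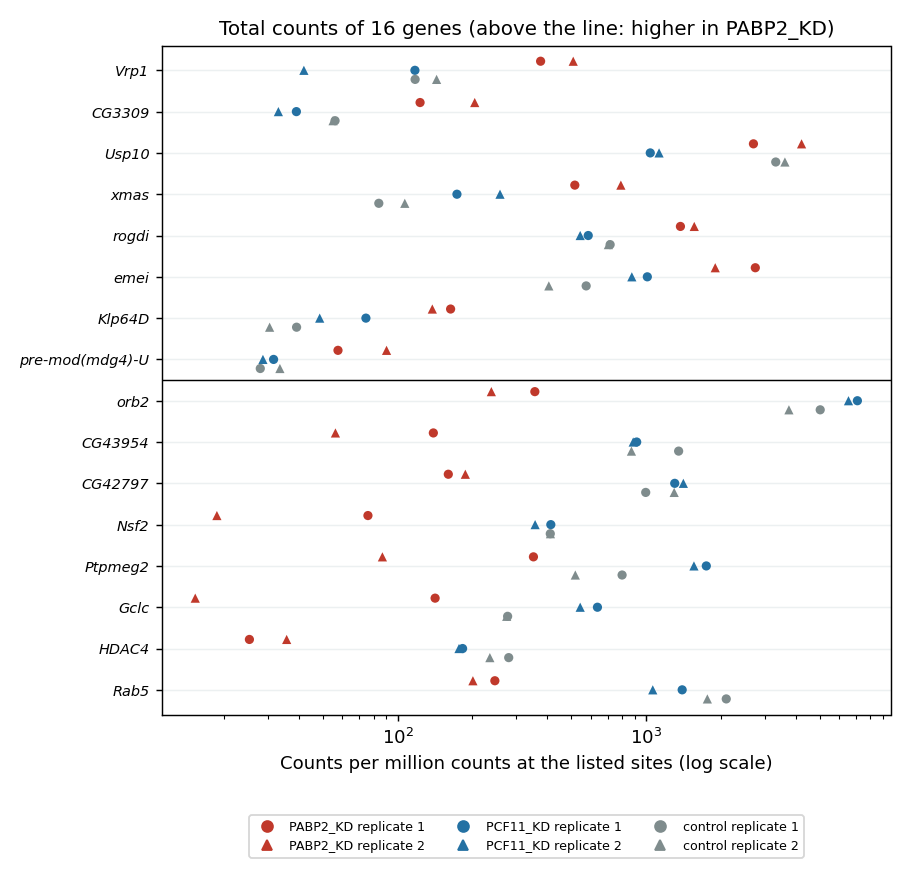
Total counts in CPM (log scale) of the 16 named genes in each library, with PABP2_KD above PCF11_KD and control in each gene's row; circles are replicate 1 and triangles replicate 2. The 8 genes above the line were higher in PABP2_KD than in PCF11_KD, and the 8 below it were lower, orb2 with 357 and 238 CPM in PABP2_KD against 7091 and 6529 CPM in PCF11_KD.

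By list, 11 of 20 ubiquitin entries (55%) had lower and 3 (15%) higher totals in PABP2_KD (median log2 change -0.39), beside 21.3% and 23.6% of all genes. Both entries of Cbl are among the 11. Usp7, a deubiquitinase, had 3334 and 2904 CPM in PABP2_KD testes, against 8893 and 10382 CPM in PCF11_KD testes and 6508 and 6166 CPM in control testes. The Usp7 log2 change was -1.63 ± 0.14 (SE), with adjusted p = 1.22e-06. rdx, the fly homolog of the adaptor SPOP, had 688 and 293 CPM in PABP2_KD testes, against 1338 and 1362 CPM in PCF11_KD testes and 2856 and 1994 CPM in control testes. For rdx the log2 change was -1.45 ± 0.28 (SE) and adjusted p = 0.00118. isopeptidase-T-3, whose shares did not pass the test between the knockdowns, had 2131 and 1998 CPM in PABP2_KD testes, against 3459 and 3416 CPM in PCF11_KD testes and 3971 and 3899.7 CPM in control testes. The isopeptidase-T-3 log2 change was -0.74 ± 0.14 (SE), with adjusted p = 7.89e-04. Of the 11 lower calls, those of DUBAI, Usp7, isopeptidase-T-3 and rdx held without each of the 4 libraries and 7 did not; of the 3 higher, only that of Usp10 held.

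For RNA-binding, translation and decay, 7 of 12 genes (58.3%) were lower and 0 higher, beside 21.3% and 23.6% of all genes, and the median was -0.60. Beside orb2, nonC had 159 and 128 CPM in PABP2_KD testes, against 395 and 333 CPM in PCF11_KD testes and 115 and 104 CPM in control testes (log2 change -1.34 ± 0.21 (SE), adjusted p = 2.86e-04), and yps, a Y-box protein, had 4026 and 5022 CPM in PABP2_KD testes, against 6969.8 and 7573 CPM in PCF11_KD testes and 11910.0 and 12533 CPM in control testes. For yps the log2 change was -0.69 ± 0.14 (SE) and adjusted p = 0.00125. In nonC the PCF11_KD libraries were the high ones, and in yps both knockdowns lay below the controls. The calls of Imp, Patr-1 and eIF2alpha were lost without at least 1 library, and those of orb2, nonC, yps and stwl held. Among 10 mitochondrial genes, 4 (40%) were lower and 0 higher, beside the same shares of all genes (median -0.25). mRpS5, of the mitochondrial ribosome, had 35.7 and 25.5 CPM in PABP2_KD testes, against 155 and 185 CPM in PCF11_KD testes and 400.5 and 415 CPM in control testes (log2 change -2.43 ± 0.36 (SE), adjusted p = 1.74e-04), and MCU had 329 and 431 CPM in PABP2_KD testes, against 840.5 and 719.8 CPM in PCF11_KD testes and 756 and 818 CPM in control testes. The MCU log2 change was -1.04 ± 0.18 (SE), with adjusted p = 4.77e-04. Tom70 was the 1 of the 4 whose call was lost, without PABP2_KD replicate 2 or either PCF11_KD library (adjusted p up to 0.191).

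Cell cycle genes were called higher in 7 of 17 cases (41.2%) and lower in 2 (11.8%), beside 23.6% and 21.3% of all genes (median 0.18). CycB had 3736 and 8226 CPM in PABP2_KD testes, against 2615 and 2842 CPM in PCF11_KD testes and 1465 and 1859.7 CPM in control testes (log2 change 1.13 ± 0.25 (SE), adjusted p = 0.00287), fzr had 1517 and 1725 CPM in PABP2_KD testes, against 844 and 921 CPM in PCF11_KD testes and 1733 and 1961 CPM in control testes (log2 change 0.88 ± 0.13 (SE), adjusted p = 1.99e-04), and gwl had 360.2 and 519 CPM in PABP2_KD testes, against 263 and 249.5 CPM in PCF11_KD testes and 89.6 and 94.7 CPM in control testes. For gwl the log2 change was 0.77 ± 0.18 (SE) and adjusted p = 0.00443. PABP2_KD replicate 2 had the highest CycB level by far. Cks30A was lower, with 290.0 and 259 CPM in PABP2_KD testes, against 425 and 468 CPM in PCF11_KD testes and 367 and 415 CPM in control testes. The Cks30A log2 change was -0.70 ± 0.15 (SE), with adjusted p = 0.00176. Of the 9 calls, those of Bub1, pim and CycT were lost without at least 1 library (for pim, without PABP2_KD replicate 1 or either PCF11_KD library, adjusted p up to 0.129; for CycT, without PCF11_KD replicate 2, 0.051).

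The shares of all genes, 23.6% higher and 21.3% lower, also stand beside the counts of the remaining lists. Transcription factors were lower in 4 of 12 cases (33.3%) and higher in 2 (16.7%), with a median of -0.31. acj6 had 221 and 267 CPM in PABP2_KD testes, against 1079 and 1437 CPM in PCF11_KD testes and 1173 and 1713 CPM in control testes (log2 change -2.37 ± 0.21 (SE), adjusted p = 1.22e-06), and Deaf1 had 160.0 and 91.96 CPM in PABP2_KD testes, against 526 and 389 CPM in PCF11_KD testes and 975 and 715 CPM in control testes (log2 change -1.84 ± 0.29 (SE), adjusted p = 2.64e-04), so that both had fewer counts in PABP2_KD while their sites moved in opposite directions. Chromatin genes were higher in 5 of 23 cases (21.7%, near the share of all genes) and lower in 3 (13.04%), with a median of -0.04. Chd3, a remodelling ATPase, had 191 and 175 CPM in PABP2_KD testes, against 95.04 and 66.2 CPM in PCF11_KD testes and 70.01 and 51.9 CPM in control testes. For Chd3 the log2 change was 1.17 ± 0.21 (SE) and adjusted p = 5.52e-04. In the cytoskeletal list 4 of 14 (28.6%) were higher and 5 (35.7%) lower (median 0.07), and spas, the microtubule-severing enzyme spastin, had 325 and 539.9 CPM in PABP2_KD testes, against 1243 and 1157 CPM in PCF11_KD testes and 1075 and 892 CPM in control testes. The spas log2 change was -1.48 ± 0.25 (SE), with adjusted p = 4.38e-04. Trafficking genes were higher in 2 of 13 cases (15.4%) and lower in 5 (38.5%), with a median of -0.26; fwd, a phosphatidylinositol kinase needed for cytokinesis of spermatocytes, had 1167 and 281 CPM in PABP2_KD testes, against 3502 and 3983 CPM in PCF11_KD testes and 2142 and 1811 CPM in control testes. For fwd the log2 change was -2.35 ± 0.62 (SE) and adjusted p = 0.00789. Its PABP2_KD libraries were far apart, and with the 4 libraries alone fwd was not called (adjusted p = 0.0639). Signalling genes were higher in 3 of 25 cases (12%) and lower in 3 (12%), with a median of -0.01, and Tsc1, an inhibitor of TOR signalling, had 664 and 513 CPM in PABP2_KD testes, against 304 and 252 CPM in PCF11_KD testes and 224 and 202 CPM in control testes. The Tsc1 log2 change was 1.08 ± 0.18 (SE), with adjusted p = 4.38e-04. In 3 of 4 genes (75%) of the endoplasmic reticulum and Golgi totals were higher (median 0.55), EMC1 with 4689.9 and 5322 CPM in PABP2_KD testes, against 3205 and 3579 CPM in PCF11_KD testes and 1826 and 1921 CPM in control testes. For EMC1 the log2 change was 0.56 ± 0.11 (SE) and adjusted p = 0.00139. Many calls of these remaining lists were lost without at least 1 of the 4 libraries. Those that held were lola-PD, Deaf1 and acj6 among transcription factors, and Chd3, PR-Set7, Scm, HDAC4 and sbb among chromatin genes. Klp64D and spas held in the cytoskeletal list, Syx6, Rab5 and fwd in trafficking, Tsc1 and chrb in signalling, and CaBP1 and EMC1 in the last list.

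Usage and totals were then read together. Of the 57 genes that moved toward distal in PABP2_KD, 23 (40.4%) had lower and 11 (19.3%) higher totals than in PCF11_KD. Of the 143 that moved toward proximal, 26 (18.2%) had lower and 37 (25.9%) higher totals. Over all 525 genes the shares were 21.3% lower and 23.6% higher. Both measures come from the same counts. Deaf1, DUBAI, Rab5, orb2, E(bx)-PC, Tom70 and chrb were among those both toward distal and lower, and for DUBAI the totals were 2792 and 2832 CPM in PABP2_KD testes, against 7281 and 6763 CPM in PCF11_KD testes and 2151 and 1652 CPM in control testes. The DUBAI log2 change was -1.32 ± 0.27 (SE), with adjusted p = 0.00139. chrb had 1289 and 1168 CPM in PABP2_KD testes, against 2003 and 2076 CPM in PCF11_KD testes and 2394 and 1988 CPM in control testes. For chrb the log2 change was -0.73 ± 0.15 (SE) and adjusted p = 0.00139.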

How the data were processed

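Testis RNA (RNeasy Plus Mini) was profiled by 3′-end sequencing with the Lexogen QuantSeq forward kit in 18 libraries, 9 groups of 2. Per the run logs, the authors counted reads with PolyA-miner. Strand (setting 0) and molecular identifiers (0) were not used. Reads fell in blocks of 30 nt at sites of the authors' own list, with a minimum of 10 counts per gene and a site share of 0.05. How the list was made is not given in the sources used here. The builds dm6 and BDGP6 and the tools Bowtie and SAMtools are named in the submitters' processing notes. The deposited tables hold raw counts per site. The authors' deposited result tables add a score per gene (PolyAIndex) and an adjusted p-value of a beta-binomial test.

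The 8 count tables shared their sites and control columns and were joined on the site. Symbols of 528 of 529 entries matched the Ensembl BDGP6 annotation within 5000 nt of the site, and the entry Tat did not. Shares, totals and CPM (counts per 1000000 of the library size after TMM scaling) are relative to genes on the authors' list. Usage was tested in edgeR 4.0.16 (R 4.3.3) by quasi-likelihood with 2 columns and 1 coefficient per library, and a common dispersion of 0.0316. Totals were tested with TMM scaling. Both fits took all 18 libraries and the genes averaging 10 counts or more, with Benjamini-Hochberg adjustment at 0.05. Scripts were tested on simulated data.

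Named genes are the 12 per direction with the greatest difference of mean share, and the 8 per direction with the greatest log2 change of the total. They were taken among called genes with non-overlapping groups and 20 counts or more on average, plus list members. A gene can belong to more than 1 list. Counts of genes are counts of entries, so Cbl, E(bx), lola and cnn each count as 2 in their lists. The members and lists were chosen with earlier results of these data known. Limits at a count of 0 are 3 counts of the total and cover counting error only. The labels give no batch. The count columns of the controls and of PABP2_KD carry the same sample numbers, so these groups were numbered in separate sets. Whether the sets were prepared or sequenced apart is not stated, and its part in the distances from control was not tested. Alternatives were DESeq2 1.42.0, other scalings, filters and site definitions, and left-out libraries.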

Additional observations from a re-analysis of the deposited data

How the results depend on the processing

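The numbers of called genes kept within 1.5 times their value under DESeq2, under no low-count filter, a minimum mean of 50 counts, the most proximal site against all others, genes with no other annotated gene at a site, and every scaling of totals that was tried. They did not with the 4 libraries alone, where 43 genes were called toward proximal and 10 toward distal, and 13 totals higher and 32 lower; all but 1 of these calls, a lower total, were also called with 18 libraries. Without 1 library at a time, the calls ran from 101 to 191 toward proximal, 28 to 77 toward distal, 69 to 139 higher and 75 to 139 lower; the cause was not tested. The difference of median shares ran from 2.32 to 8.63 points and that of summed shares from -0.491 to 5.17 points. With a replicate block, 147 and 59 genes were called for usage, and 129 higher and 111 lower for totals. The labels do not say what the replicate numbers stand for. Deviations of same-numbered PABP2_KD and PCF11_KD libraries had a correlation of -0.00826 in share and 0.120 in log2 CPM across 525 genes. These values cannot show whether same-numbered libraries were prepared together. Of the 84 named genes called for usage, 23 kept the call under every alternative run, as did 20 of 50 for totals, and none (0) changed direction. With the 4 libraries alone, 45 of these calls were kept and 89 lost. Genes named for shares that did not pass between the knockdowns changed sign without 1 library: log2 odds ran from -0.21 to 1.25 in Cks30A, -0.28 to 1.58 in gwl, -0.0023 to 0.26 in Syx7 and -0.015 to 0.71 in isopeptidase-T-3. Genes with few counts (ftz-f1, CG17724, Src42A, Hr3) are limited by depth.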

Other observations

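Several genes entered the site list as 2 isoform entries with separate last exons or sites, of which 1 passed the test and the other did not in the genes given here. A pass beside a miss does not show that the entries differ, and that was not tested. The E(bx) entries both had lower shares in PABP2_KD than in PCF11_KD. The entry lola-PAA had 85.1% and 95.2% in PABP2_KD testes, against 84.7% and 96.7% in PCF11_KD testes and 70.1% and 87.04% in control testes (edgeR, log2 odds -0.08 ± 0.87 (SE), adjusted p = 0.951), beside the call of lola-PD toward proximal. cnn-PD had 95.3% and 97.7% in PABP2_KD testes, against 97.05% and 95.99% in PCF11_KD testes and 86.8% and 93.1% in control testes (log2 odds 0.06 ± 0.39 (SE), adjusted p = 0.93), beside that of cnn-PI. Cbl-PA had 73.7% and 59.7% in PABP2_KD testes, against 64.4% and 63.2% in PCF11_KD testes and 42.03% and 46.6% in control testes (log2 odds 0.31 ± 0.48 (SE), adjusted p = 0.651), beside that of Cbl-PB, and E(bx)-PA had 30.5% and 20% in PABP2_KD testes, against 40.9% and 47.5% in PCF11_KD testes and 78.9% and 81.7% in control testes (log2 odds -1.10 ± 0.58 (SE), adjusted p = 0.155), beside that of E(bx)-PC toward distal.

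Spermatid genes that are transcribed after meiosis, r-cup and m-cup, and nes, an acyltransferase gene of spermatids, were all called toward distal in PABP2_KD, as were 10.9% of all genes; they are the 3 spermatid markers measured. Their totals went both ways, higher for nes and lower for r-cup and m-cup. nes had 43.1% and 53.4% in PABP2_KD testes, against 62.8% and 66.7% in PCF11_KD testes and 78.1% and 81.7% in control testes (edgeR, log2 odds -0.98 ± 0.27 (SE), adjusted p = 0.0124), r-cup had 83.4% and 89.4% in PABP2_KD testes, against 90.5% and 91.3% in PCF11_KD testes and 93.8% and 94.9% in control testes (log2 odds -0.64 ± 0.24 (SE), adjusted p = 0.0492), and m-cup had 97.5% and 97.3% in PABP2_KD testes, against 98.8% and 98.7% in PCF11_KD testes and 98.7% and 98.6% in control testes. The m-cup log2 odds was -1.06 ± 0.35 (SE), with adjusted p = 0.0287. Each call was lost without PCF11_KD replicate 2, those of r-cup and m-cup also without PCF11_KD replicate 1, those of nes and r-cup without PABP2_KD replicate 1 and that of m-cup without PABP2_KD replicate 2 (adjusted p up to 0.0872, 0.359 and 0.127).

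Genes known by an annotation number alone held some of the smallest p-values; those given here were chosen after their values were seen. CG10947 had 99.01% and 98.9% in PABP2_KD testes, against 73.7% and 70.96% in PCF11_KD testes and 97.6% and 98.3% in control testes (edgeR, log2 odds 5.19 ± 0.25 (SE), adjusted p = 1.19e-08), and CG43341 had 89.2% and 85.3% in PABP2_KD testes, against 54.9% and 56.6% in PCF11_KD testes and 93.8% and 96.7% in control testes. For CG43341 the log2 odds was 2.45 ± 0.30 (SE) and adjusted p = 4.16e-05. CG3061 moved toward distal, with 27.4% and 27.4% in PABP2_KD testes, against 48.9% and 46.1% in PCF11_KD testes and 69.7% and 70.6% in control testes (log2 odds -1.26 ± 0.14 (SE), adjusted p = 2.75e-05), and so did CG4502, with 65.8% and 66.8% in PABP2_KD testes, against 80.8% and 82.3% in PCF11_KD testes and 97.6% and 97.1% in control testes. The CG4502 log2 odds was -1.17 ± 0.17 (SE), with adjusted p = 1.42e-04. In CG3061 and CG4502 both knockdowns lay below the controls, and PABP2_KD lower.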
